A study of Homo sapiens with 2 samples.

Results

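The 355 peaks described here are those on chromosome 20 in a list of 9393 sites bound by Flag-tagged YAP-5SA. They are all peaks of the list that the authors placed on that chromosome, and the chromosome was selected on the number and height of its peaks in this same list. Those values are therefore a description, and no test is attached to them. The comparison set is the 8873 peaks on the other 21 autosomes, and the 165 peaks of chromosome X were left out of it.

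The study used MCF10A, a human mammary epithelial cell line that one label calls non-transformed and another a breast cancer line. The cells expressed Flag-YAP-5SA, and there was 1 immunoprecipitated library, collected on Flag-M2 beads, and 1 input DNA library. Only the first is described, from its peak list on the hg19 build. The sources used here do not name the promoter that drives the construct, its expression level or the number of clones, and the identity of the cells cannot be checked against marker genes in a list of peaks. Read depth is unknown. With 1 library there is no replicate check of any value, and each interval below covers counting error only, over peaks that are not independent of each other.

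YAP is a transcriptional co-activator with no DNA-binding domain of its own, and it reaches chromatin mainly through the TEAD family of DNA-binding factors. The Hippo kinases phosphorylate YAP and so keep it in the cytoplasm. In the 5SA form the serines they act on are alanines, so the protein escapes this control, and much of the YAP bound to epithelial chromatin lies at enhancers away from promoters. Chromosome 20 carries genes with known parts in these processes, among them STK4, which encodes a core Hippo kinase, JAG1, a Notch ligand, LAMA5, a laminin chain of basement membranes, BCL2L1, an inhibitor of apoptosis, SRC, a tyrosine kinase of adhesion signalling, and ZNF217, a transcription factor gene within a 20q region often gained in breast tumours. The gene and promoter tables at hand are for GRCh38, a different build from that of the peaks, so no peak below is assigned to any of these or other genes, no peak sequence is printed, and sites are given by hg19 position.

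Chromosome 20 carried more peaks per length than any other autosome. It held 3.85% of the autosomal peaks, at 6.07 per Mb (95% exact Poisson interval 5.46 to 6.74), against 3.52 per Mb over the other autosomes together, a ratio of 1.73 (95% exact interval 1.55 to 1.92). The other autosomes ran from 2.45 per Mb on chromosome 16 to 4.50 on chromosome 1. Length here is the distance from the first to the last summit of a chromosome less its longest stretch without a peak. The peaks of chromosome 20 together covered 257.1 kb, or 4.40 kb per Mb, against 1.61 to 3.14 kb per Mb on the other autosomes.

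Gene density did not order the autosomes in the same way. Chromosome 20 has 537 protein-coding genes in the RefSeq table for GRCh38, or 9.18 per Mb of the same length, which placed it 8th among the autosomes. Chromosome 1, with 9.19 coding genes per Mb, had 4.50 peaks per Mb. Chromosome 19, the most gene-dense autosome at 27.7 coding genes per Mb, had 4.28 peaks per Mb, and chromosome 22, at 15.0 coding genes per Mb, had 4.03. Counted per gene, chromosome 20 had 66.1 peaks per 100 coding genes (95% exact Poisson interval 59.4 to 73.4) against 47.7 over the other autosomes, a ratio of 1.38 (1.24 to 1.54). That value ranked 6th, and the gene-poor chromosome 13 was highest with 84.6. The excess on chromosome 20 was thus smaller per gene than per Mb.

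**Figure D1:**
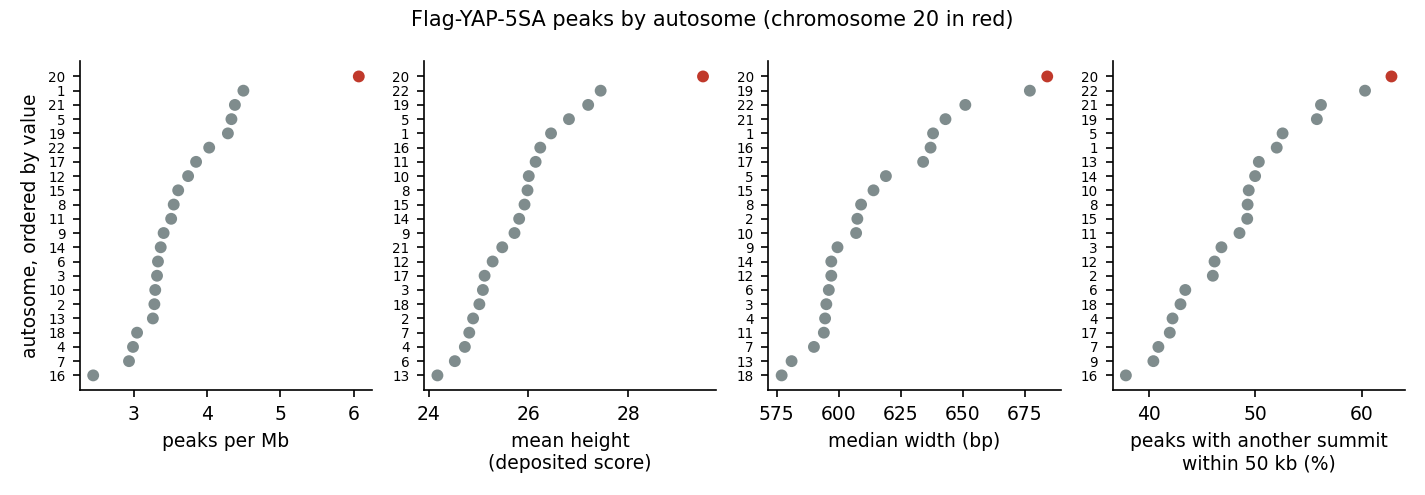
Each panel ranks the 22 autosomes by 1 measure of their peaks (peaks per Mb, mean height in units of the deposited score, median width in bp, and the percentage of peaks with another summit within 50 kb), with chromosome 20 in red and the others in grey. Chromosome 20 is at the top of all 4 panels, with 6.07 peaks per Mb, a mean height of 29.5, a median width of 684 bp and 62.8% of peaks with a close neighbour.

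The height of a peak is the score that the authors deposited for its summit, a whole number with no stated unit. On chromosome 20 it ran from 10 to 91, with a median of 27 and a mean of 29.5 ± 11.1 (SD over 355 peaks). On the other autosomes it ran from 9 to 100, with a median of 24 and a mean of 25.6 ± 9.53 (SD over 8873 peaks). The difference was present along the whole distribution and widened upwards: it was 2 at the 10th percentile, 3 at the 25th and at the median, 4 at the 75th and 6 at the 90th. The mean of chromosome 20 was above that of each other autosome, of which chromosome 22 came nearest at 27.4.

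Low peaks were few on chromosome 20. Only 11 of its 355 peaks, or 3.10% (95% Wilson interval 1.74 to 5.46), had a height of 15 or less, against 8.20% over the other autosomes and 6.56% to 10.7% on each of them. At the upper end, 53 peaks, or 14.9% (11.6 to 19.01), were 40 or more in height, against 749 of 8873, or 8.44%, elsewhere. Chromosome 22 had a slightly larger share, 15.7%. Per length, chromosome 20 had 0.906 such tall peaks per Mb, and chromosome 22 was next with 0.633. Of the 24 autosomal peaks of height 71 or more, 2 were on chromosome 20, and of the 512 of height 44 or more, 39 were, or 7.62%. A height of 60 was reached by 5 of its peaks, or 1.41% (0.603 to 3.25), against 0.924% elsewhere.

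Peaks of chromosome 20 were also wider, a measure that did not enter the choice of the chromosome. Their median width was 684 bp, the middle 50% ran from 574.5 to 802.5 bp, and the narrowest and widest had 317 and 1685 bp. On the other autosomes the median was 609 bp, and the middle 50% ran from 519 to 707 bp. The median of chromosome 20 was the highest of the autosomes, with chromosome 19 close behind at 677 bp and chromosome 18 lowest at 577 bp. A width of 900 bp or more was found for 59 peaks, or 16.6% (13.1 to 20.8), against 8.2% elsewhere. Chromosome 19 had more of them, 17.4%. The median distance from a summit to the centre of its interval was 49.5 bp on chromosome 20 and 42.5 bp elsewhere.

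The greater width was not limited to tall peaks. Among peaks of height 16 to 19, the median was 672.5 bp for the 44 peaks of chromosome 20 and 577 bp for the 1701 elsewhere, a difference of 95.5 bp. The difference was 70 bp at heights of 20 to 24, 68 bp at 25 to 29, 39.5 bp at 30 to 39 and 36 bp at 40 or more. In the lowest band, of 9 to 15, it was 104 bp, over 11 peaks. The differences were thus larger among low peaks than among tall ones. The greater height was also found within bands of width. In each of 5 such bands the median height of chromosome 20 exceeded that elsewhere. The difference was 2 or 3 in the 4 bands up to 899 bp, and it was largest, at 5, among peaks of 900 bp or more. Within chromosome 20 the relation of height to width was weak (Spearman's rho = 0.15 across 355 peaks that share 1 library), and it was 0.14 across the peaks of the other autosomes.

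**Figure D2:**
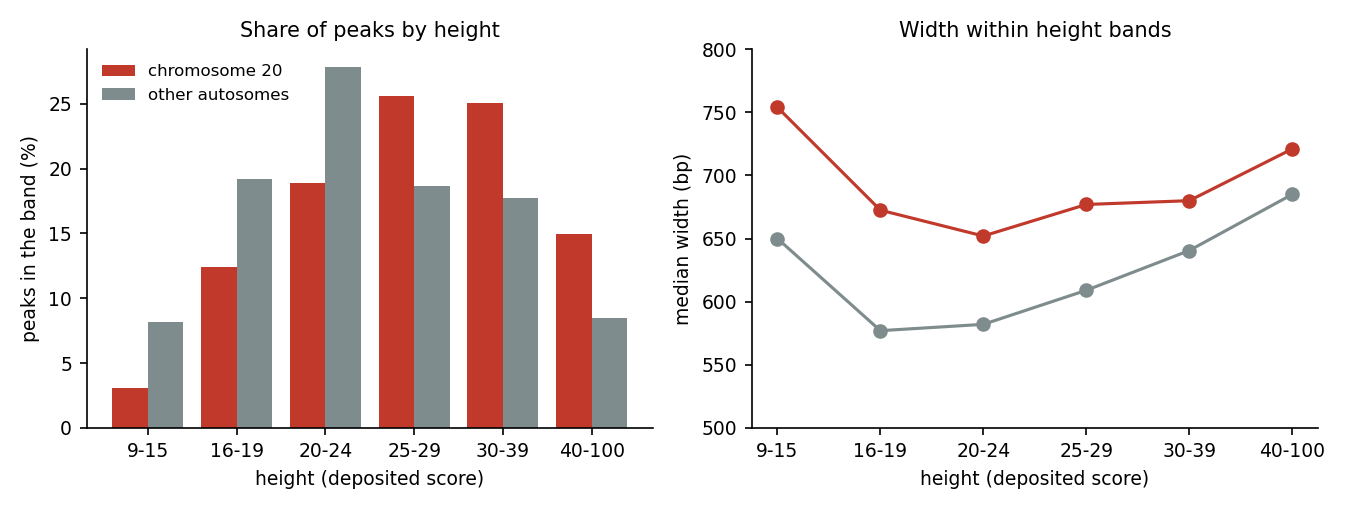
Left, the percentage of peaks in each band of height (deposited score) for chromosome 20 (red bars) and the other autosomes (grey bars). Right, the median width in bp of the peaks in each band, with the same colours and a width axis that starts at 500 bp. Chromosome 20 has smaller shares in the 3 bands up to 24 and larger shares in the 3 bands above, and its median width is higher in all 6, by 36 to 104 bp.

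The tallest peak of the chromosome, and the third of the whole list, lay at chr20:60936194-60937782 with a height of 91 and a width of 1589 bp, which also made it the second widest on the chromosome. It belonged to a group of 3 peaks at chr20:60924877-60937782, and the other two had heights of 29 and 23. The next, at chr20:21706454-21707107, had a height of 82 and a width of 654 bp, and no other summit lay within 116.7 kb of it. These peaks thus differed in form: one was broad with close neighbours and the other was of ordinary width and alone.

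Heights then dropped to 67 at chr20:39118433-39119067 and 66 at chr20:54797153-54797855. A height of 62 was reached at chr20:36745786-36746675, and 59 both at chr20:36796186-36797042, 50.3 kb further on, and at chr20:49124410-49125182. The neighbour of the last, at chr20:49157207-49158001, had a height of 58, as did chr20:3262970-3263798, whose nearest summit was 261.5 kb away. Next came chr20:15467432-15468333 with 56, and chr20:1796790-1797572 and chr20:19764594-19765296 with 55 each. A height of 54 was found at chr20:55362424-55363906, in an interval of 1483 bp. Tall peaks therefore lay on both sides of the chromosome's longest peak-free stretch, and some came in near pairs.

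The remaining 7 of the 20 tallest had heights of 51 to 53. Those of 53 lay at chr20:6890132-6890773, chr20:22743147-22744661, chr20:34957421-34957976 and chr20:46129998-46130920. The peak at chr20:19384249-19384737 had a height of 52 in the narrowest interval of any tall peak of the chromosome, 489 bp. Peaks of height 51 were at chr20:33510356-33510912 and chr20:55384559-55385279, the latter 21.4 kb from the peak of height 54. Among all 53 tall peaks, the median width was 721 bp, and 14 were 900 bp or wider (26.4%, against 13.8% of tall peaks elsewhere). No other summit lay within 50 kb of 17 of the 53. The same held for 132 of all 355 peaks of the chromosome and for 4661 of the 8873 elsewhere. At the limit used for tall peaks, 5 peaks had a height of exactly 40 and 9 had a height of 39, so the count of 53 depends on where the limit is set.

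Among the widest intervals, chr20:36526852-36528536 was first with 1685 bp but had a height of only 34. The others of the widest 5, after the tallest peak itself, were chr20:59760713-59762299 (1587 bp, height 46), chr20:22743147-22744661 (1515 bp, height 53) and chr20:59759076-59760587 (1512 bp, height 31). The first and last of these 3 are adjacent intervals under 200 bp apart. There were 5 such adjacent pairs on the chromosome, and whether each is 1 site or 2 cannot be told from the list.

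**Figure D3:**
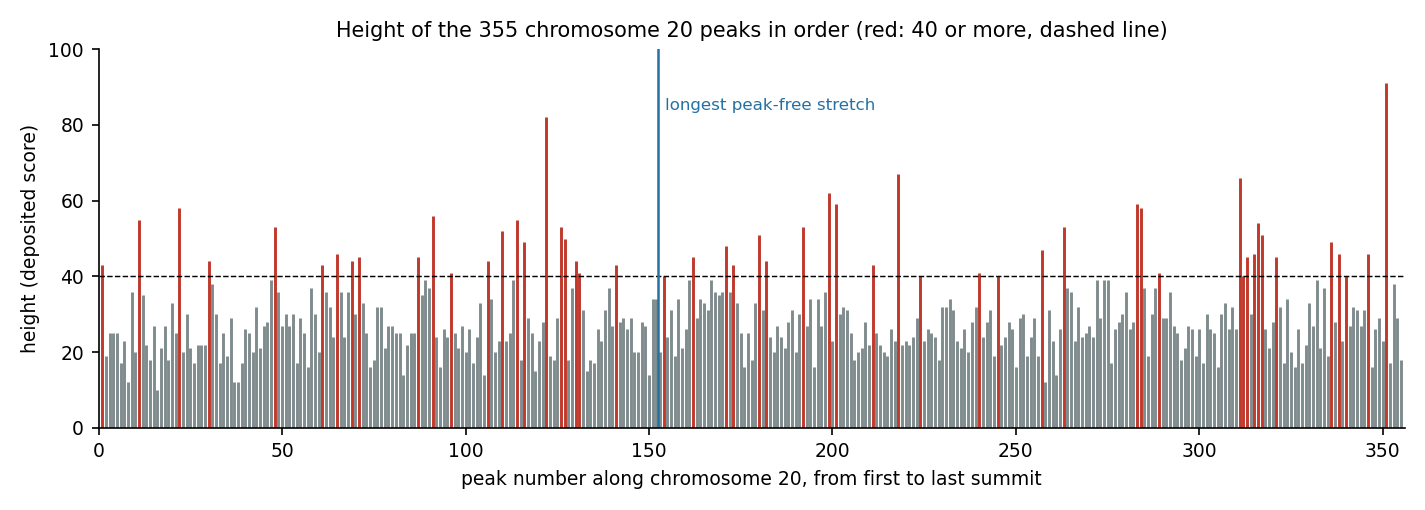
Height (deposited score) of each of the 355 chromosome 20 peaks, as 1 vertical line per peak in order from the first to the last summit, with the 53 peaks of height 40 or more in red, a dashed line at 40 and a blue line at the longest peak-free stretch. Tall peaks are spread over the whole order, 22 before the stretch and 31 after it, with the peaks of height 82 and 91 on either side.

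Peaks were found along the whole chromosome. The first summit was at 0.0963 Mb and the last at 62.5 Mb, and 59 of the 63 megabases from the start to the last summit held at least 1. The longest stretch without a peak, of 3.92 Mb, ran from 26.1 to 30.1 Mb and was taken as the boundary between the arms. Others over 1 Mb ran from 40.1 to 42.4 Mb, from 53.4 to 54.8 Mb, from 7.84 to 8.996 Mb, from 30.7 to 31.8 Mb and from 59.8 to 60.9 Mb. Mappability of these stretches was not examined.

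Both arms had nearly the same density. There were 152 peaks at 5.84 per Mb before the longest stretch and 203 at 6.26 per Mb after it, a ratio of 1.07 with a 95% exact interval of 0.865 to 1.33. Mean height was 28.6 ± 11.1 (SD over 152 peaks) before and 30.2 ± 11.0 (SD over 203 peaks) after, and tall peaks made up 14.5% (9.76 to 20.9) and 15.3% (11.0 to 20.9). Median widths were 662.5 and 692 bp. Another summit lay within 50 kb of 57.2% (49.3 to 64.8) of peaks before the stretch and 67.0% (60.3 to 73.1) after it. The shares of low peaks were 5.92% (3.15 to 10.9) before and 0.985% (0.271 to 3.52) after the stretch, where 2 of 203 peaks had a height of 15 or less. Of the 11 low peaks, 9 were thus on the short arm.

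In windows of 5 Mb, counts were from 19 to 40 apart from 2 windows: that from 25 to 30 Mb, which contains the longest stretch and had 9 peaks, and the last, which is incomplete and had 7. The most peaks, 40, were between 30 and 35 Mb, followed by 38 between 45 and 50 Mb and 36 between 55 and 60 Mb. Mean heights of these 3 windows were 31.3, 31.4 and 31.3, with SDs over peaks of 9.31, 10.7 and 10.8. The lowest mean among windows with at least 15 peaks, 26.6 ± 11.1 (SD over 33 peaks), was in the first 5 Mb, where the median was 23. The window from 55 to 60 Mb had the most tall peaks, 9 of 36. Between 40 and 45 Mb there were 28 peaks of which only 2 were tall, and the tallest, at chr20:43478788-43479530, reached 41. The tallest was 46 between 10 and 15 Mb, at chr20:10286908-10288182, and 34 between 25 and 30 Mb, at both chr20:25718701-25719336 and chr20:26144595-26144911. Median widths of the windows with at least 15 peaks ran from 637 to 768.5 bp, each above the 609 bp of the other autosomes.

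**Figure D4:**
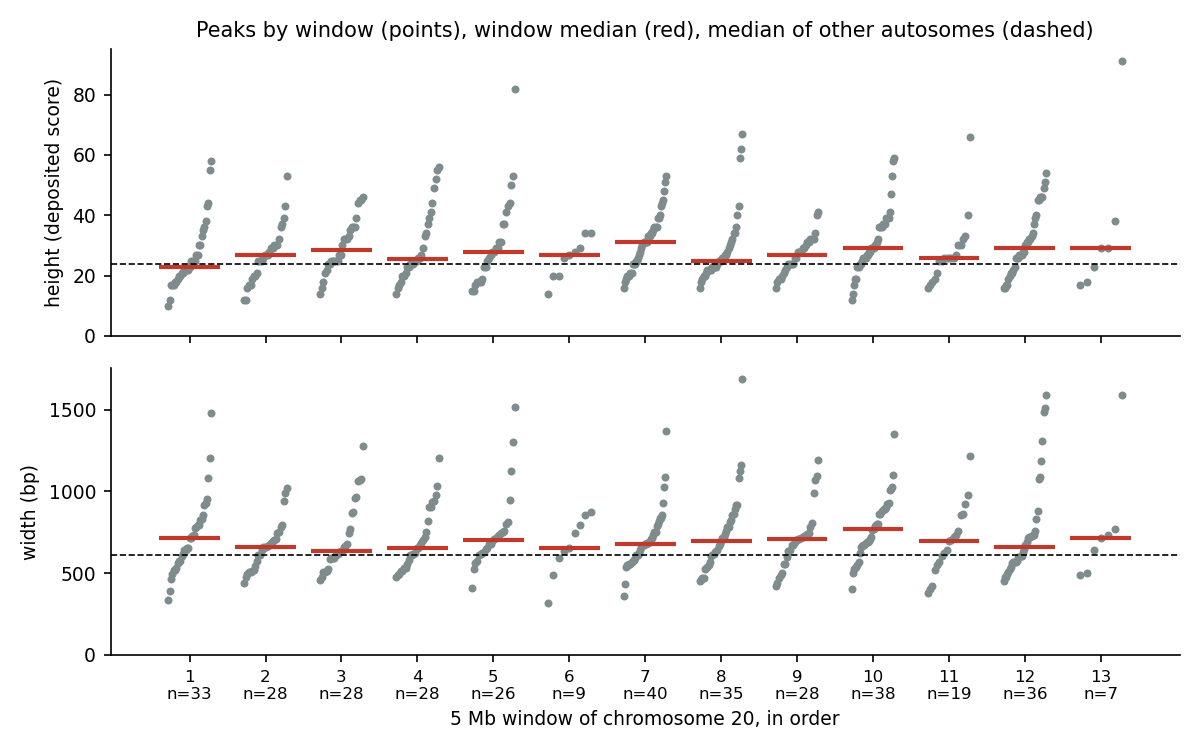
Height (deposited score, upper panel) and width in bp (lower panel) of each chromosome 20 peak, as grey points, in 13 consecutive windows of 5 Mb with the number of peaks under each, window medians as red lines and the median of the other autosomes as a dashed line. All window medians of width lie above the dashed line at 609 bp, and all window medians of height lie above that at 24 except in the first window, whose median is 23.

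Pooled over windows elsewhere with similar counts of peaks, heights were lower and intervals narrower. On the other autosomes, 189 windows held from 19 to 39 peaks, which is within the range of the 11 fuller windows of chromosome 20. Their 4602 peaks had a mean height of 25.8 and a median width of 620.5 bp, against 29.5 and 684 bp over the 339 peaks in the 11 windows. The share of tall peaks was 8.43% against 15.3%. Mean heights of single windows overlapped: those of chromosome 20 ran from 26.6 to 31.4 and those of the others from 20.6 to 37.0, with a median of 25.4. Median widths of single windows overlapped too: those of chromosome 20, from 637 to 768.5 bp, lay within the range of the others, from 523 to 817 bp, whose median was 617.5 bp. The windows elsewhere held a median of 23 peaks and those of chromosome 20 a median of 28, so the 2 sets are alike in range and not in density.

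The densest megabases were from 43 to 44 Mb and from 49 to 50 Mb, with 15 peaks each, of median heights 26 and 30. They were followed by 13 peaks from 30 to 31 Mb, with a median height of 31, 11 from 39 to 40 Mb, and 10 each from 36 to 37 and from 52 to 53 Mb. Together these 6 megabases, all on the long arm, held 74 peaks, or 20.8% of those on the chromosome. The megabases were picked for holding the most peaks, and the like share was not computed for the other autosomes. A dense megabase did not need to hold tall peaks: the tallest of the 10 peaks from 52 to 53 Mb was 33, whereas that of the 10 from 36 to 37 Mb was 62.

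Close spacing was common. The median distance between neighbouring summits was 79.3 kb. Another summit lay within 50 kb of 223 peaks, or 62.8% (57.7 to 67.7), against 47.5% on the other autosomes together. Chromosome 22, at 60.3%, lay inside that interval, and chromosomes 21 and 19 had 56.2% and 55.8%. Within 10 kb the shares were 27.9% (23.5 to 32.8) on chromosome 20 and 19.4% on the other autosomes together. Chromosome 19 lay inside that interval, as did chromosomes 11 (24.8%) and 1 (24.5%). A higher density alone brings summits closer, and these shares are not corrected for it. In the windows elsewhere that held from 19 to 39 peaks, 54.6% of peaks had a neighbour within 50 kb, against 62.5% in the 11 fuller windows of chromosome 20. The distance to the nearest summit showed almost no relation to height on chromosome 20 (Spearman's rho = 0.01 across 355 peaks), and heights of adjacent peaks were weakly related (rho = 0.09 across 354 pairs).

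With intervals joined across gaps of at most 12500 bp, 123 peaks, or 34.6% (29.9 to 39.7), fell into 54 groups, of which 41 were pairs, 11 held 3 peaks and 2 held 4. Elsewhere 22.8% of peaks fell into such groups. Groups of 3 or more held 11.5% (8.63 to 15.3) of peaks on chromosome 20 and 6.45% on the other autosomes together. Single autosomes ran from 0% on chromosome 22 to 11.0% on chromosome 1, which lay inside that interval. A higher density alone brings peaks into groups, and these shares are not corrected for it. On chromosome 20 mean height was 29.3 ± 12.0 (SD over 123 peaks) in groups and 29.6 ± 10.6 (SD over 232 peaks) outside them, so the tallness of the chromosome was found in both. On the other autosomes the means were 26.5 ± 10.2 for grouped and 25.4 ± 9.30 for single peaks. Grouped peaks were wider than single ones on both sides, with medians of 718 and 665.5 bp on chromosome 20 and 644 and 599 bp elsewhere.

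The groups of 3 or 4 ranged from tight runs of similar peaks to runs that included 1 tall peak. Both groups of 4 were of the second kind: chr20:1785407-1806827 had heights of 36, 20, 55 and 35 in order, and chr20:30283739-30308475 had 21, 26, 39 and 45. At chr20:36737969-36751964 the heights were 36, 62 and 23, at chr20:49109512-49125182 they were 26, 28 and 59, and at chr20:60924877-60937782 they were 29, 23 and 91. The groups at chr20:58401113-58406674, with heights of 37, 19 and 49 within 5.56 kb, and at chr20:59759076-59775069, with 31, 46 and 16, also held a tall peak. That makes 7 of 13 groups with a peak of height 40 or more, or 53.8% (Wilson interval 29.1 to 76.8). On the other autosomes, 57 of 174 groups of 3 or more peaks held one, or 32.8%. That share lies inside the interval of chromosome 20, which is wide because it rests on 13 groups. The chromosome was also chosen on peak height, so no conclusion is drawn from this count.

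The other 6 groups of chromosome 20 had no peak above 33. The tightest, chr20:24111836-24115655, placed heights of 26, 23 and 31 within 3.82 kb. At chr20:36812273-36827394 the heights were nearly level, at 30, 32 and 31, and this group lay 60.3 kb beyond the one that contains the peak of height 62. Heights were 21, 28 and 31 at chr20:34454346-34472563, 23, 26 and 25 at chr20:39944972-39959454, 20, 28 and 32 at chr20:43349155-43359501, and 33, 26 and 32 at chr20:52739952-52758078. Of the 13 groups, 11 were on the long arm, which held 203 of the 355 peaks of the chromosome, or 57.2%.

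None of the number, height, width or spacing of peaks was corrected for DNA copy number, and coverage of the input was not analysed here. In 1 peak list, more binding on chromosome 20 and more copies of it cannot be told apart.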

How the data were processed

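Cells were fixed with formaldehyde, chromatin was sonicated, and DNA collected on Flag-M2 beads was sequenced on an Illumina HiSeq instrument, per the labels' protocols. Per the submitters' processing notes, the tools were BWA 0.6.1 and MACS and the build was hg19. The peak threshold, duplicate filter and control library are not stated in these sources. Per the file headers, the deposited file has a summit track with a score, called height here, and an interval track. The scale of that score is not stated, so differences in height are given and no folds. The tracks were joined by line order, and starts were made 1-based. Shares carry Wilson intervals and densities exact Poisson or conditional binomial intervals, all at the 95% level. The functions were tested on simulated data. RefSeq tables for GRCh38.p14 gave only gene names, gene types, chromosomes and promoters. Counts of protein-coding genes per chromosome came from the same tables. Planned results on gene location, genes next to peaks and peak motifs were not run. The sites named are the 20 tallest, the tallest of each 5 Mb window, the widest 5 and groups of 3 or more, with counts at the edge of height 40. Chromosome, sites and gene lists were chosen with earlier results of these data known. Python 3.11.15, numpy 2.4.6, pandas 2.3.3, scipy 1.17.1 and matplotlib 3.10.9 were used.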

Additional observations from a re-analysis of the deposited data

How the results depend on the processing

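No paired analysis was possible because each group is a single library, and no replicate could be left out. Over 18 alternatives for 7 results, 5 of them chosen after seeing the data, none reversed a direction. The chromosome was chosen on the number and height of its peaks. For density, height and the share of tall peaks this outcome was therefore largely set in advance. The number of groups has no direction that could reverse. The density ratio of chromosome 20 to the other autosomes was 2.53 for peaks higher than the median height, a restriction that the taller peaks of the chromosome raise by construction, and 1.38 per 100 coding genes, against 1.73 per Mb. The difference in mean height was 2.21 against chromosomes 19 and 22 only, and 3.88 against all other autosomes. The difference in median width was 55 bp among peaks higher than the median and 75 bp over all. The ratio of the shares with another summit was 1.44 within 10 kb and 1.32 within 50 kb. Joining at 5 kb gave 31 groups with 18.0% of the chromosome's peaks, against 13.7% of peaks elsewhere in such groups. At 12500 bp there were 54 groups with 34.6%, against 22.8% elsewhere. The other 12 alternatives gave values inside the 95% interval of the main result or, for the number of groups, within a factor of 1.5. For height and width that interval was computed from the spread over peaks of 1 library. Chromosome lengths of hg19, gene location, gene assignment and peak motifs were not run. Unknown depth and the single library limit every value.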

Other observations

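The promoters of chromosome 20 genes were read from the RefSeq table for GRCh38.p14, from 250 bases before to 50 bases after each gene's start, without reference to any peak. The core of the TEAD motif, GGAATG on either strand, was in 41 of 384 promoters of protein-coding genes on chromosome 20, or 10.7% (95% Wilson interval 7.97 to 14.2), and in 11.7% of 14717 on the other autosomes. The AP-1 motif, TGANTCA on either strand, was in 14 of 384, or 3.65% (2.18 to 6.03), and in 5.76% of those on the other autosomes. The table held a promoter for 384 of the 537 coding genes of chromosome 20. Motifs in the bound sites themselves were not examined. The 6 gene lists were drawn up for chromosome 20, so the location of their 105 genes is no result. They covered Hippo signalling and polarity, adhesion and cytoskeleton, transcription factors, signalling, cell cycle and survival, and the 20q regions gained in breast tumours. The table held a promoter for 62 of the 105, and 7 of these held GGAATG, beside 41 of all 384.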
